A study of Mus musculus with 6 samples.

Results

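Prrx1, Prrx2, Alx1, Alx4, Shox2 and Pitx1 are homeobox genes of the paired-like class that mark and build the mesenchyme of the face. They were followed in branchial arch 1, the forerunner of the jaws, with all 14 probe sets that carry 1 of these symbols alone in the annotation of the array, out of 45101 probe sets in all. Each gene is represented below by its brightest probe set, so that the 6 genes stand among 18194 genes tested. The 3 arches of the labelled-mutant group are labelled as Wnt1Cre Ezh2lox/lox mouse embryos. The 3 arches of the labelled-control group are labelled as Ezh2lox/lox, with no transgene named. By the labels, all 6 embryos were taken at embryonic day 11.5 and all carried lox alleles of Ezh2. This gene encodes the methyltransferase of Polycomb repressive complex 2 (PRC2), which keeps developmental genes silent by methylating histone H3. The Wnt1-Cre transgene acts in the neural crest lineage, and is not expected to act in the surface epithelium, the muscle core and the vessels of the arch. Each embryo gave 1 arch and 1 array, and values are log2 signals as deposited. Differences are labelled mutant minus labelled control, fitted with limma and adjusted by the Benjamini-Hochberg method over all 18194 genes. A gene passed at an adjusted p below 0.05.

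Paired-like proteins carry a homeodomain that can bind palindromic TAAT sites as a pair of molecules. In the mouse, Prrx1 and Prrx2 act redundantly in the growth of the lower jaw and limbs, Alx1 and Alx4 shape the frontonasal and midfacial skeleton, Alx4 also patterns the anterior limb bud, Shox2 acts in the anterior palate, the proximal limb and the sinoatrial node, and Pitx1 acts in the lower jaw and specifies the hindlimb. All but Alx1 are thus described here with a role in the limb as well.

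Of the 12 arch mesenchyme markers, 12 lay above the array median on every array. So did 10 of 10 epithelial, 7 of 8 endothelial, 4 of 8 macrophage and 5 of 19 limb mesenchyme genes. Each gene is its brightest probe set, while the median is that of all probe sets. The count therefore does not single out mesenchyme. The groups are called by their labels for several reasons. The single Ezh2 probe set did not separate them (11.66 ± 0.01 in labelled-mutant and 11.63 ± 0.15 in labelled-control arches, SD, n = 3 each), and its position relative to the deleted part was not determined here. Hoxd13, which PRC2 is known to silence, read 4.66 ± 0.17 in the labelled-mutant and 9.09 ± 0.37 in the labelled-control arches (SD, n = 3 each), although loss of PRC2 is known to raise such genes. A second Hoxd13 probe set differed by -0.27. Hoxa11, a Hox gene of the same kind, read 5.39 ± 0.04 in labelled-mutant and 8.78 ± 0.65 in labelled-control arches (SD, n = 3 each). Its direction was that of Hoxd13. Other Hox genes, such as Hoxd11 and Hoxd12, were dim in both groups and did not pass. Xist and 3 Y-linked genes showed the female pattern in all 3 labelled-mutant and the male pattern in all 3 labelled-control arrays, so that embryo sex and label cannot be told apart in any value below. In tissue of several cell types, fewer expressing cells and less RNA per cell cannot be told apart either.

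None of the 6 paired-like genes passed the test with limma, and 0 had an unadjusted p below 0.05, against 18.7% of all genes. Over all genes 5.53% passed, of which 1.23% of all genes rose and 4.3% fell. The groups of 3 arrays overlapped for each of the 6 genes, and they did not overlap for 24.9% of all genes. With only 6 genes, counts of 0 at these shares do not set the paired-like genes apart from all genes. The 6 differences lay between -0.16 and 0.20 with a median of 0.06, and the median over all genes was 0.02. In absolute size the median was 0.11 for the 6 genes and 0.10 for all genes, and 22.9% of all genes differed by more than Prrx1, which had the largest difference of the 6. Genes that miss the threshold are not thereby shown to be equal. The 95% confidence intervals of the 6 differences bound them at the brightest probe sets only, and are not adjusted for multiple tests. Together they span ratios of labelled mutant to labelled control from 0.690 (the lower limit of Shox2) to 1.335 (the upper limit of Prrx1). Intervals of other probe sets reached higher, with upper limits of 2.58 for Prrx1 1425526_a_at and 1.469 for Pitx1 1419514_at.

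**Figure D1:**
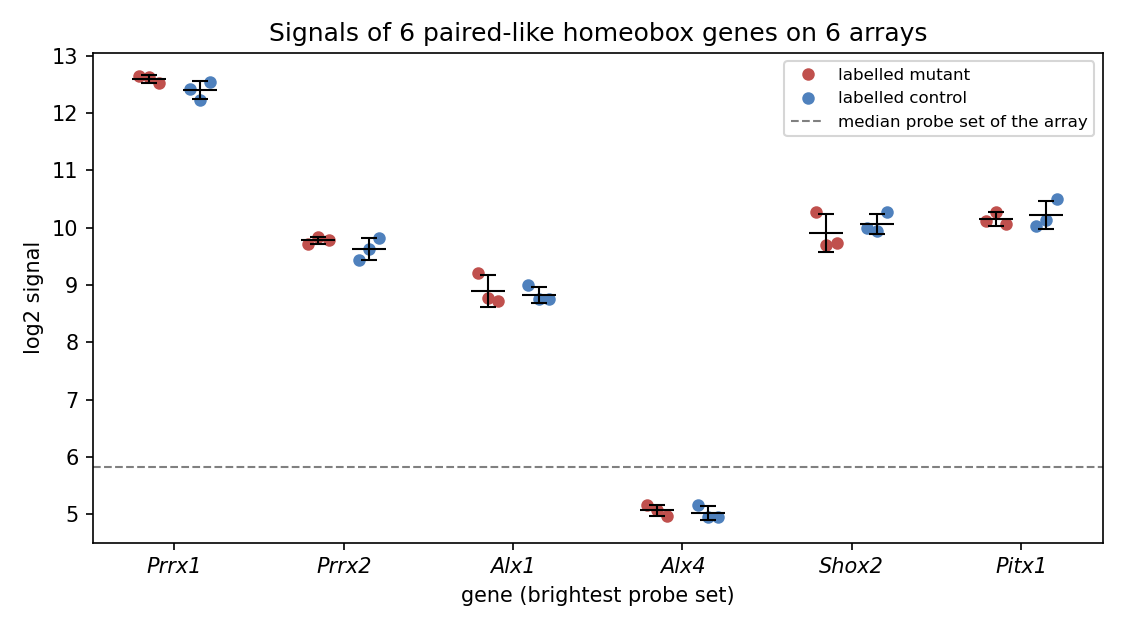
Log2 signals of the brightest probe set of each gene (horizontal axis) on the 3 labelled-mutant arrays (red, left) and 3 labelled-control arrays (blue, right), with mean and SD as black lines. The groups overlap for each of the 6 genes, and Alx4 alone lies below the array median of 5.81, drawn as a dashed line.

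Prrx1, which keeps mesenchymal precursors growing, read 12.64, 12.62 and 12.52 in the labelled-mutant arches, against 12.41, 12.23 and 12.54 in the labelled-control arches. The labelled-mutant arrays lay close together, and only labelled-control array 3 reached into their range. The difference was 0.20 with a standard error of 0.10 and a 95% interval of -0.017 to 0.417 (limma, Benjamini-Hochberg adjusted p = 0.308).

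Prrx2, the paralog that replaces Prrx1 in part in the jaw, has 1 probe set. It read 9.72, 9.84 and 9.78 in the labelled-mutant arches, against 9.43, 9.62 and 9.82 in the labelled-control arches. The labelled-control arrays spread more widely (SD 0.20) than the labelled-mutant arrays (SD 0.06), and 1 of them lay among the labelled-mutant values. The difference was 0.16 ± 0.11 (SE), with an interval of -0.085 to 0.396 (limma, Benjamini-Hochberg adjusted p = 0.489). Prrx1 and Prrx2 were thus both higher in mean. The gap between their differences was 0.04, which an exact two-sided permutation test of the within-array differences did not resolve (p = 0.8, adjusted p = 1 over 5 pairs of genes compared, where the smallest p that 3 against 3 arrays allow is 0.1).

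Prrx1 has 6 probe sets, and they did not give 1 answer. The probe sets are named by their array identifiers, and for the separate tests p-values were adjusted over the 34958 probe sets with 1 gene symbol, of which 2.82% passed. Probe set 1425527_at read 7.999, 8.143 and 7.952 in the labelled-mutant arches, against 7.775, 7.441 and 7.789 in the labelled-control arches. It was the only 1 of the 14 probe sets whose groups did not overlap, which 21.9% of all probe sets also showed. Its difference was 0.36, with an interval of 0.099 to 0.627 that leaves out 0, an interval not adjusted for multiple tests (limma, Benjamini-Hochberg adjusted p = 0.177).

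Probe set 1432129_a_at differed by 0.29, with an interval of 0.013 to 0.566 (limma, Benjamini-Hochberg adjusted p = 0.303). Of the 14 probe sets these 2 had an unadjusted p below 0.05, a share to be read against 15.3% of all probe sets. Probe set 1439774_at, bright at 10.95 ± 0.04 in the labelled-mutant and 10.96 ± 0.19 in the labelled-control arches, differed by -0.013. The dim probe set 1458004_at lay below the 25th percentile of the array on all 6 arrays and differed by -0.14.

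The widest interval belonged to probe set 1425526_a_at of Prrx1, which read 10.35, 10.11 and 10.87 in the labelled-mutant arches, against 9.05, 10.48 and 10.11 in the labelled-control arches. A single array, labelled control 1, was more than 1 log2 unit below the others. The difference of 0.56 (interval -0.242 to 1.367) dropped to 0.15 without that array. Where the probe sets lie along the Prrx1 transcripts was not determined here, so isoforms cannot be assigned to these values.

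**Figure D2:**
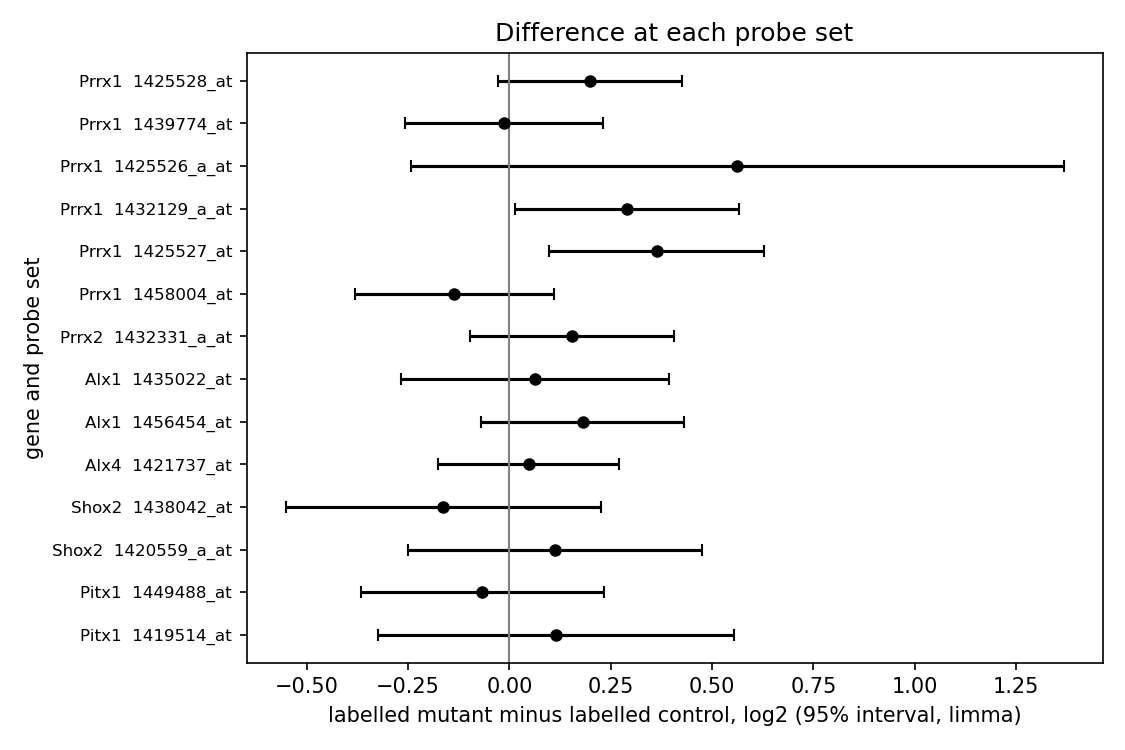
Difference between the group means in log2 units (points, horizontal axis) with 95% confidence intervals from limma (bars) for each of the 14 probe sets, labelled mutant minus labelled control. The 6 probe sets of Prrx1 run from -0.14 to 0.56, and the intervals of 2 of them, 1432129_a_at and 1425527_at, leave out 0.

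Alx1, which is needed for the frontonasal mesenchyme and the cranial base, read 9.21, 8.76 and 8.71 in the labelled-mutant arches, against 8.99, 8.76 and 8.75 in the labelled-control arches. In each group array 1 was the highest and the other arrays lay close together, so that the values of the groups interleaved. The difference was 0.06 ± 0.14 (SE), with an interval of -0.253 to 0.381 (limma, Benjamini-Hochberg adjusted p = 0.862). It turned to -0.09 without labelled-mutant array 1. The second, dimmer probe set 1456454_at differed by 0.18 (interval -0.070 to 0.432).

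Alx4, an anterior limb and midface regulator that restrains Shh expression in the mouse limb bud, gave 5.17, 5.07 and 4.97 in the labelled-mutant arches, against 5.16, 4.95 and 4.94 in the labelled-control arches. All 6 values were below the array median of 5.81 and above the 25th percentile of 4.33. This gene is thus measured in the lower part of the scale, where differences may be compressed, which was not tested. The difference was 0.05 ± 0.09 (SE), with an interval of -0.165 to 0.260 (limma, Benjamini-Hochberg adjusted p = 0.845). The differences of Alx1 and Alx4 were 0.02 apart (exact two-sided permutation test, p = 1, adjusted p = 1 over the 5 pairs).

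Shox2, a regulator of proximal limb growth and of the palate, read 10.28, 9.69 and 9.73 in the labelled-mutant arches, against 9.99, 9.93 and 10.27 in the labelled-control arches. The labelled-mutant group held both the highest and the lowest of the 6 values. The difference of -0.16 ± 0.16 (SE) had the widest interval among the 6 genes, -0.536 to 0.210 (limma, Benjamini-Hochberg adjusted p = 0.659). Without labelled-mutant array 1 it was -0.35, and it still did not pass. The other Shox2 probe set, 1420559_a_at, gave the opposite sign at 0.11. It read 7.01, 6.88 and 6.89 in the labelled-mutant arches, against 6.46, 7.13 and 6.85 in the labelled-control arches, and turned to -0.06 without labelled-control array 1.

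The start of Shox2 is shown because PRC2 is known to occupy promoters rich in CpG dinucleotides, and because, of the 3 windows matched (Prrx1, Prrx2 and Shox2), it is the only 1 outside the span of its annotated gene. The 250 bases before the RefSeq start, on the minus strand of chr3:66981772-66982021 (GRCm38.p6), are printed with every CpG in capitals.
Shox2: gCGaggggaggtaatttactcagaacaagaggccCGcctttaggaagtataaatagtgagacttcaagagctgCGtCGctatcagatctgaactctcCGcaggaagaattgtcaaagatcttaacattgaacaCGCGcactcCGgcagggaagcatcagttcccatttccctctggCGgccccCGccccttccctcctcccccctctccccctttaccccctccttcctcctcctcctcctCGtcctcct
This window holds 11 CpG dinucleotides, and 35.6% of the 32851 windows of the same length in the RefSeq table hold at least as many. The windows of Prrx2 and Prrx1 lie inside the spans of their genes and so are not like that of Shox2. They hold 21 (16.3% of windows hold at least as many) and 4 (62.2%) CpG dinucleotides, in that order. The median over all windows is 6. The counts describe these windows and say nothing of PRC2 binding there.

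Pitx1, which specifies the hindlimb and acts in the lower jaw, read 10.11, 10.28 and 10.06 in the labelled-mutant arches, against 10.03, 10.13 and 10.49 in the labelled-control arches. The labelled-control group held both the lowest and the highest value. The difference was -0.07 ± 0.13 (SE), with an interval of -0.354 to 0.221 (limma, Benjamini-Hochberg adjusted p = 0.839). It changed sign to 0.07 without labelled-control array 3, and to 0.02 with the mean of both probe sets. Probe set 1419514_at gave 8.22, 8.42 and 8.11 in the labelled-mutant arches, against 7.67, 8.37 and 8.36 in the labelled-control arches. Its difference of 0.12 turned to -0.12 without labelled-control array 1, the lowest of its 6 arrays.

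Labelled-control array 1 was thus the lowest of all 6 arrays at 5 of the 14 probe sets, among them a secondary probe set each of Prrx1, Shox2 and Pitx1 and the only probe set of Prrx2. How often this holds over all probe sets was not determined here. The same array was the highest of all 6 at Prrx1 probe sets 1439774_at (11.15) and 1458004_at (3.465). Its part in the differences is given by the values without it above. For Prrx2 the difference was 0.06 without that array. Across all 14 probe sets 10 differences were above 0 and 4 below, but the probe sets of a gene share its transcripts and are not independent.

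Around these genes, other regulators did differ between the same arrays. The list of other facial mesenchyme transcription factors held 30 tested genes, and 10 of them rose, 2 fell and 18 missed the threshold (median difference 0.14). Tbx22, a palate regulator, rose by 2.14, Dlx5, which specifies the lower jaw, by 1.18, and the distal arch genes Msx1 and Msx2 by 1.15 and 1.10. Dlx2 (0.97), Dlx1 (0.67) and the heart and distal arch gene Hand1 (0.44) also rose, and Foxf2, a palate mesenchyme gene, fell by 0.51 (limma, Benjamini-Hochberg adjusted p between 1.30e-04 for Dlx5 and 0.0176 for Foxf2). Twist1 and Barx1, also in this list, differed by -0.20 and -0.08 and did not pass. The arch mesenchyme marker Pdgfra, which is outside this list, fell by 0.63 at its brightest probe set. The count of facial factors past the threshold fell to 6 without labelled-mutant array 3. It fell to 7 without labelled-mutant array 2 or labelled-control array 2, and all of these were higher. Foxf2 was lost without each of these 3 arrays, and Hand1 without labelled-mutant array 1 or 3 or labelled-control array 2. Both were also lost with the mean of their probe sets, since the other probe set of Hand1 differed by 0.06 and that of Foxf2 by -0.05. The other probe set of Msx2 differed by 0.40.

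Of 15 other paired-like genes measured, 0 rose, 2 fell and 13 did not pass (median 0.06). Otx2, a head organizer of the forebrain and midbrain, read 4.38 ± 0.11 in labelled-mutant and 5.65 ± 0.05 in labelled-control arches and fell by 1.27, and its relative Otx1 fell by 0.67 (limma, Benjamini-Hochberg adjusted p = 8.76e-05 and 0.0183). Both lay below the array median on every array, as did 11 of the 15 genes. Otx1 was lost without any 1 of the 3 labelled-mutant arrays and without labelled-control array 2. Gsc, the paired-like gene of the distal arch, was at 8.89 in labelled-mutant and 8.98 in labelled-control arches and did not pass.

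Genes reported to act with or downstream of the 6 members moved in both directions. Among 24 such genes 2 rose, 9 fell and 13 missed the threshold (median -0.03). Tnc, a matrix gene that Prrx1 can activate, fell by 2.23, while Prrx1 had a difference of 0.20. Tbx4, which lies downstream of Pitx1 in the mouse hindlimb, read 6.94 ± 0.06 in labelled-mutant and 8.46 ± 0.22 in labelled-control arches and fell by 1.52, while Pitx1 had a difference of -0.07. Isl1, downstream of Shox2 in the sinoatrial node, fell by 0.85, while Shox2 had a difference of -0.16 (limma, Benjamini-Hochberg adjusted p = 0.00523, 1.81e-04 and 0.0049 for Tnc, Tbx4 and Isl1).

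The gap between the member and its downstream gene was 2.43 for Prrx1 and Tnc, 1.46 for Pitx1 and Tbx4, and 0.69 for Shox2 and Isl1. Exact two-sided permutation tests of the within-array difference gave p = 0.1, 0.1 and 0.2, with adjusted p = 0.25, 0.25 and 0.333 over the 5 pairs. The smallest p that 3 against 3 arrays can give is 0.1, so no pair could pass at 0.05. These tests therefore cannot decide whether a member and its downstream gene differed by unequal amounts. These 3 pairs were chosen after the values of the genes had been seen. Among the other genes of this list, the small leucine-rich proteoglycan gene Ogn (-1.39), the forelimb gene Tbx5 (-1.20), the receptor gene Pdgfra (-0.63) and the ligand gene Wnt5a (-0.61) fell, and the chondrocyte regulator Sox5 rose by 1.14. Other probe sets of Isl1, Sox5, Pdgfra, Wnt5a and Ogn differed by as little as -0.10, 0.02, -0.05, -0.14 and -0.36. Shh, which Alx4 restrains in the limb, and Bmp4, downstream of Shox2 in the heart and limb, differed by -0.07 and -0.31 and did not pass.

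Since 5 of the 6 genes also act in the limb, genes of limb mesenchyme were set beside them. Among 19 such genes 10 fell, 1 rose and 8 missed the threshold (median -0.77). Tbx4, Tbx5, Fgf10 and Shh are also in the partner list, and Hand2 is also in the facial factor list. The counts of these lists are thus not separate observations. The falls were those of Hoxd13 (-4.42), a gene of the digits, Lhx9 (-4.19) and Lhx2 (-1.20), which act in limb outgrowth, Hoxa11 (-3.40), a gene of the forearm, the T-box genes Tbx15 (-3.18), Tbx4 (-1.52) and Tbx5 (-1.20), the BMP antagonist gene Grem1 (-2.17), and Tbx18 (-2.86) and Irx3 (-0.77) (limma, Benjamini-Hochberg adjusted p from 3.72e-06 for Hoxd13 to 0.00859 for Tbx18). The gene that rose, Hand2 at 0.51, is also an arch gene, and it missed the threshold without labelled-mutant array 2 or 3 and without labelled-control array 2 or 3. Another probe set of Hoxd13, Lhx9, Tbx4, Tbx5 and Tbx15 gave -0.27, -0.28, -0.22, -0.04 and -0.93, so these falls were smaller at other probe sets of the same gene. None of those 5 members, Prrx1, Prrx2, Alx4, Shox2 and Pitx1, passed, at differences from -0.16 to 0.20.

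**Figure D3:**
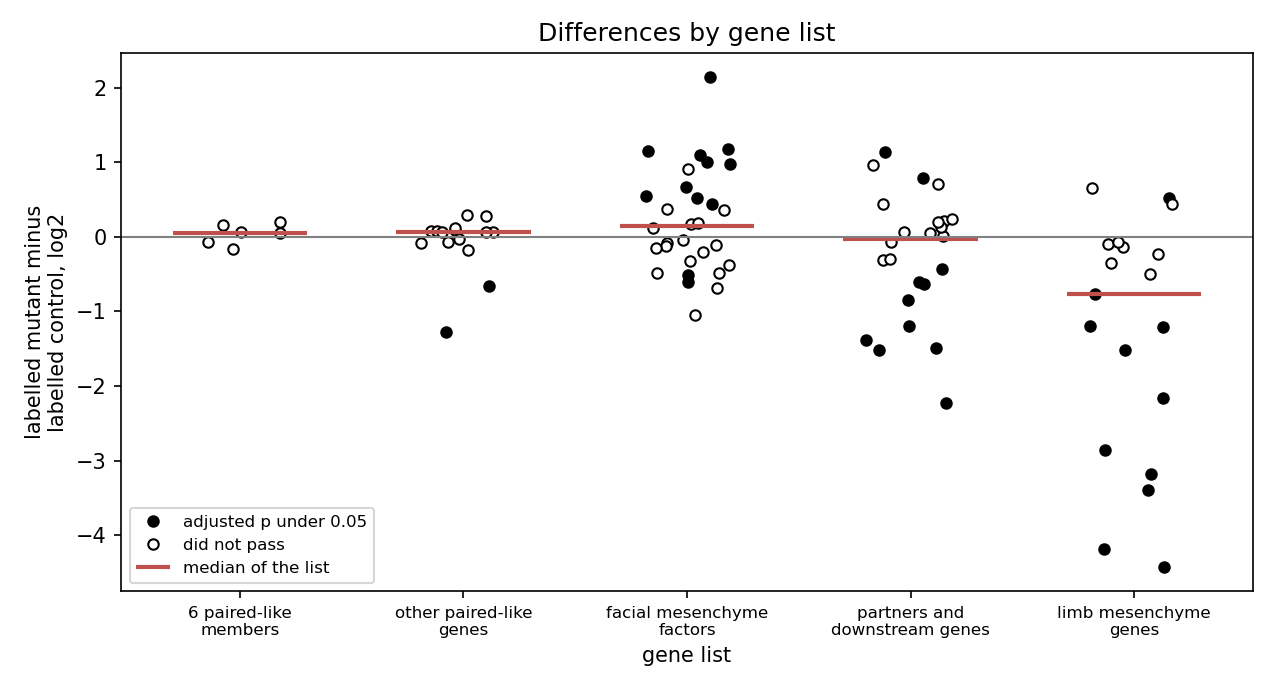
Difference in log2 units (vertical axis) of each gene, labelled mutant minus labelled control, for the 6 paired-like genes and 4 other gene lists. Filled points passed at an adjusted p under 0.05, open points did not, and red lines are list medians. The 6 members lie between -0.16 and 0.20, while the limb mesenchyme genes reach -4.42.

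Marker genes of other cell types of the arch differed in part. Of 7 head muscle genes 6 fell, with mean log2 levels of 6.50 to 7.32 on the labelled-mutant and 7.78 to 8.08 on the labelled-control arrays, and of 7 neuronal genes 5 fell (6.37 to 6.84 and 7.73 to 7.86). Epithelial genes (1 of 10 passed, higher), endothelial genes (0 of 8), erythroid genes (1 of 6, lower) and macrophage genes (1 of 8, lower) differed in few members. Of the 12 arch mesenchyme markers 7 rose and 1 fell, at means of 10.23 to 10.39 on the labelled-mutant and 9.80 to 9.92 on the labelled-control arrays. All 7 that rose are also in the facial factor list, and the 1 that fell, Pdgfra, is in the partner list. They are thus not separate observations. Over all genes 1.23% rose and 4.3% fell. What part the differences of these marker genes have in the values of the 6 paired-like genes was not tested.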

How the data were processed

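Total RNA of single arches was biotin-labelled and hybridised to 1-colour arrays, per the labels' protocols. The deposited values are log2 signals, 1 per probe set and array; the scale was inferred from their range of 2.63 to 14.68. All 6 arrays share their quantiles (median 5.81), so the authors had brought them to 1 distribution, and a general shift of all genes cannot be seen. For the summary method and software, the sources used here give nothing.

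Of 45101 probe sets, 34958 carry 1 gene symbol in the platform annotation, 932 several and 9211 none; 34754 of the first matched a RefSeq gene (GRCm38.p6) by Entrez identifier. Each of 18194 genes is its probe set with the highest mean. No dim gene was left out. Differences were fitted with limma 3.58.1 (R 4.3.3), without covariates. The number of arrays limits precision. Correlations between arrays were 0.995 to 0.998 within groups and 0.988 to 0.992 between them, and no array repeated another.

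The members and gene lists were chosen with earlier results of these data known. Named genes are the members, the label checks and, per list, up to 8 genes past the threshold with the largest moderated t; others were named after their values were seen. Genes with a profile like a member's were to be named only for members past the threshold, hence none are. Alternatives were a replicate block, repeated quantile normalization, median centring, a floor at the 20th percentile, leaving out dim genes, the mean of probe sets, trend and robust settings, and leaving out each array. The procedure was tested on simulated data. List genes without a probe set of 1 symbol were not analysed here.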

Additional observations from a re-analysis of the deposited data

How the results depend on the processing

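None of the 6 paired-like genes passed under any of the 13 alternatives (12 for Alx4, which the filter on dim genes removes), and 0 of their 14 probe sets passed when every probe set was tested separately, an alternative chosen after seeing the data. Prrx1 and Prrx2 kept a positive and Shox2 a negative difference under all 13 alternatives. Some unadjusted limma p-values did fall below 0.05. For Prrx1 they were 0.00921 with the mean of probe sets, 0.0344 with trend and robust settings and 0.0181 without labelled-control array 3. For Prrx2 it was 0.0266 without labelled-control array 3, and for Shox2 0.0196 without labelled-mutant array 1. Leaving out 1 array at a time gave 0.12 to 0.27 for Prrx1, 0.06 to 0.25 for Prrx2, -0.0925 to 0.155 for Alx1, -0.0027 to 0.12 for Alx4, -0.35 to -0.058 for Shox2 and -0.16 to 0.07 for Pitx1. The negative values of Alx1 and Alx4 came without labelled-mutant array 1. Pitx1 changed sign to 0.0245 with the mean of its probe sets. Without labelled-control array 1, 3 probe set differences changed sign, to 0.08 for Prrx1 1439774_at, -0.0637 for Shox2 1420559_a_at and -0.12 for Pitx1 1419514_at. The count of all genes that passed was 1007, and it was 657 with the replicate block, 329 with floored signals, 598 without dim genes and 435 to 1021 without 1 array. With floored signals the counts were 1 of the other paired-like genes, 5 of the facial factors, 5 of the partner and downstream genes and 6 of the limb genes. Without dim genes they were 0, 11, 7 and 5. Leaving out 1 array gave 1 to 2, 6 to 12, 9 to 13 and 10 to 12 of these lists. Same-numbered arrays had correlations of -0.21, -0.12 and -0.07 between their deviations from the group means, and other pairings had -0.08 to 0.19. No pairing by replicate number was thus seen, but 3 arrays per group cannot exclude one. The replicate block changed no call of the 6 genes. Of the 27 genes outside the 6 that are named as past the threshold in the facial, paired-like, partner and limb lists, 12 missed it under at least 1 alternative. Msx1, Tnc, Ogn, Grem1, Lhx2 and Irx3 did so only with floored signals, Tbx18 with floored signals and with trend and robust settings, Isl1 with floored signals and the mean of probe sets, and Otx1, Hand1, Hand2 and Foxf2 under 5 or 6 alternatives each. The cause was not tested.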

Other observations

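The genes next to the 6 paired-like genes on the chromosome were looked up in the RefSeq gene table (GRCm38.p6), as the nearest tested protein-coding gene on either side, a choice made after the values of the 6 genes had been seen. Of these 12 neighbours 0 passed with limma, and 3 had an unadjusted p below 0.05, against 5.53% and 18.7% of all genes. The largest difference was that of Ptx3 beside Shox2, a secreted pattern recognition gene, which read 8.29 ± 0.09 in labelled-mutant and 8.90 ± 0.37 in labelled-control arches (SD, n = 3 each), and thus differed by -0.61 ± 0.17 (SE; limma, Benjamini-Hochberg adjusted p = 0.0787). Asb6 beside Prrx2 and Cd82 beside Alx4 differed by 0.22 and 0.23 (limma, Benjamini-Hochberg adjusted p = 0.137 and 0.119). The other neighbours differed by between -0.10 and 0.15.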
